A study of Mus musculus with 2 samples.

Results

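Plzf, encoded by Zbtb16, is a transcription factor that represses genes through partner proteins, and the 35 genes described here encode those partners and the chromatin complexes they lead to. They are a fixed set of names that uses no cut on a measured value, drawn up with earlier results of these data known, and all 35 were found among the 37071 gene names measured. They fall into 4 roles, with 6 co-repressor and ligase partners, 6 histone deacetylases, 9 genes of Polycomb repressive complex 2 (PRC2) and 14 genes of Polycomb repressive complex 1 (PRC1). Brain RNA of wild type (C57BL/6) and homozygous luxoid (Plzf lu/lu) mouse embryos, taken at E10.5, was hybridized to 2 Agilent arrays, with wild type in Cy3 and Plzf lu/lu in Cy5 on each. The methods name forebrain and midbrain as the tissue. Luxoid is a spontaneous mutation that truncates the Plzf protein in every cell, and the labels give no strain for these embryos other than luxoid. The labels call the arrays biological replicates, and the number of embryos behind each is not given in the sources used here. The dyes were not exchanged and both arrays lay on 1 slide, so a dye effect on a probe and an effect of genotype cannot be told apart. The same holds for an effect of strain, if the luxoid embryos differed in strain from the wild type.

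Plzf carries a BTB domain that binds the co-repressors NCoR and SIN3, which bring histone deacetylases to target genes, and it also binds the cullin CUL3, the scaffold of a ubiquitin ligase. Deacetylases remove acetyl groups from histone tails and thereby close chromatin. PRC2 methylates histone H3 on lysine 27 and PRC1 reads that mark through its Cbx subunits and ubiquitinates histone H2A, and in the embryonic brain both complexes hold developmental genes silent in neural progenitors. Plzf has been tied to Polycomb through Bmi1, a PRC1 subunit. The question put to the data was whether the messages of these proteins differed in the brain without functional Plzf.

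Each gene was represented by its brightest probe, and the unit of the signals is the intensity of a spot after background subtraction and dye normalization. A gene was tested when all 4 channels had a signal above 200 with a signal-to-noise ratio of 5 or more, which 10600 genes did. Of the 35 genes, 26 passed and 9 did not, and all 35 were well above background in each of the 4 channels. The ratio is always Plzf lu/lu over wild type, so a positive log2 ratio means more signal in Plzf lu/lu. The ratios of array 1 correlated with those of array 2 at a Pearson r of 0.553 across genes, which are not replicates of each other. The probe of Zbtb16 itself (chr9:48462419-48462478, mm9) gave 433 in wild type and 172 in Plzf lu/lu on array 1, and 546 and 211 on array 2, which are log2 ratios of -1.33 and -1.37. Both Plzf lu/lu values lay below both wild type values, in the direction of the labels. The Plzf lu/lu signal on array 1 was under 200, so Zbtb16 missed the filter and was not among the genes tested. The smallest p that an exact sign-flip test allows with 2 arrays is 0.5, so genes were tested with limma, where the variance is pooled over genes, and p-values were adjusted over all genes tested.

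The co-repressor, deacetylase and Polycomb genes were called about as often as the other genes on the arrays. Of the 26 that passed the filter, only Hdac7, a class IIa deacetylase, was more than 1.3-fold higher in Plzf lu/lu on each array, and no gene was lower by as much. Among all genes tested, 2.58% went beyond 1.3-fold upward on both arrays and 0.736% downward, so 1 higher and 0 lower of 26 is near that share. No gene of the 26 had an adjusted p under 0.05 in limma, where 0.0283% of all genes did. At an unadjusted p under 0.05 from limma there were 7 genes (26.9%), against 27.8% of all genes tested. Of these 7, Hdac7, Kdm1a, Ezh2, Rbbp4, Hdac1 and Ncor1 were higher in Plzf lu/lu and Sin3a was lower, where 15.7% of all genes tested were higher and 12% lower at this threshold. At an adjusted p under 0.1 in limma there were 3 genes, Hdac7, Kdm1a and Ezh2 (background 12.2%).

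The mean log2 ratios of the 26 genes ran from -0.23 for Sin3a to 0.45 for Hdac7, with a median of 0.06 against 0.0067 over all genes tested. On array 1 the median was 0.06 and on array 2 it was 0.01, where the corresponding medians of all genes were 0.02 and -0.0047. On both arrays 13 genes were above 0 (background 37.3%) and 9 were below 0 (background 35.4%), and the other 4 changed sign between the arrays. The sign was thus the same on both arrays in 84.6% of the 26 genes, against 72.6% of all genes tested. Several genes below are described as having no overlap between the 2 values of each genotype. The share of all genes that separate in this way was not counted, so it lends no weight to a single gene. The 95% interval from limma lay wholly within 1.3-fold in either direction for 18 genes (69.2%), against 62.3% of all genes. The arrays did not contribute equally. On array 1, 4 genes went beyond 1.3-fold (background 13.8%), namely Kdm1a, Hdac7, Rbbp4 and Ezh2, and on array 2 only Hdac7 did (background 6.46%).

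**Figure D1:**
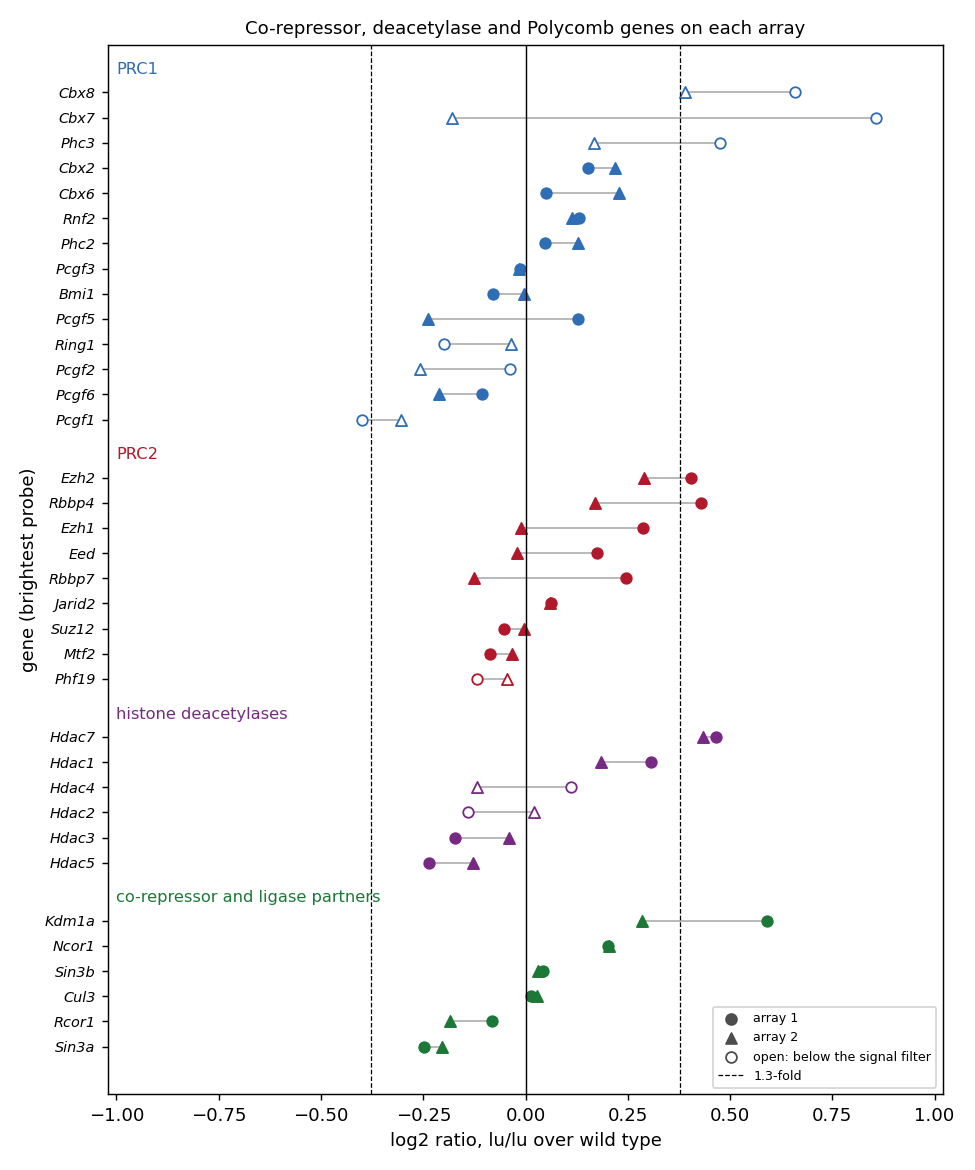
The log2 ratio of Plzf lu/lu over wild type (horizontal axis) is plotted for each of the 35 genes (vertical axis), grouped by role, with circles for array 1, triangles for array 2 and open symbols for genes below the signal filter. Among the filled symbols, Hdac7 at 0.47 and 0.43 is the only gene with both points outside the dashed 1.3-fold lines.

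**Figure D2:**
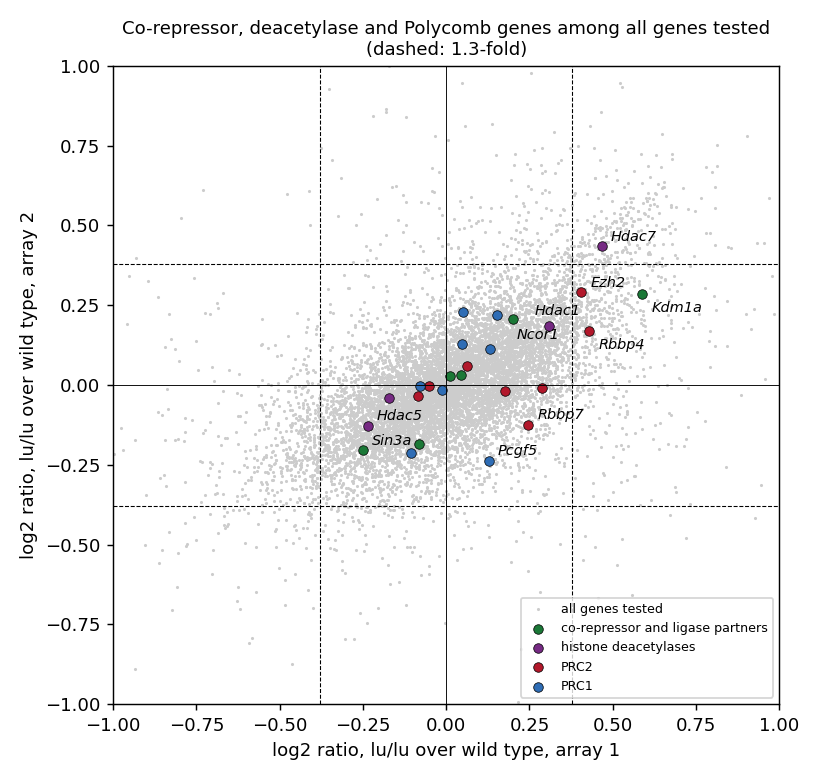
The log2 ratio on array 1 (horizontal axis) is plotted against that on array 2 (vertical axis) for the 26 genes that passed the filter, coloured by role, over all 10600 genes tested in grey, of which 53 lie outside the axes. The 26 genes lie within the cloud of all genes, with Hdac7 and Kdm1a toward its upper right edge and Sin3a on the lower left side.

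The base composition of the probes moved with these ratios. Across the 10600 genes tested, all measured on the same arrays, the log2 ratio went down with the GC content of the probe, with a Spearman correlation of -0.38 on array 1 and -0.20 on array 2. The co-repressor, deacetylase and Polycomb genes sat on GC-poor probes, with a GC content of at most 35% in 16 of the 26 (61.5%), against 24.7% of all genes tested. With the trend on GC content removed, the median of the 26 genes was -0.02. The value was lower than before in 23 of the 26 genes, and the means of Cul3, Phc2, Rbbp7 and Sin3b turned from above to below 0. Hdac1 went to 0.16, Cbx2 to 0.11, Rnf2 to 0.03 and Cbx6 to 0.0063. Hdac7, whose probe has the median GC content of 41.7%, had a mean of 0.44, Kdm1a one of 0.35 and Ezh2 one of 0.26. The part of GC content in the values of single genes was not tested further.

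Of the co-repressor and ligase partners, all 6 passed the filter, with a median of 0.03. Kdm1a, the histone demethylase LSD1 that works with the scaffold Rcor1 (CoREST), stood highest among them. Its probe (chr4:136106506-136106565, minus strand, mm9) gave 2819 in wild type and 4241 in Plzf lu/lu on array 1, and 3119 and 3801 on array 2. Both Plzf lu/lu values lay above both wild type values, but the difference on array 1 was the larger. The log2 ratios were 0.59 and 0.29, with a mean of 0.44 (SD 0.21, n = 2 arrays) and an adjusted p from limma of 0.0782. Rcor1 itself lay on the other side, at 1000 and 945 on array 1 and 995 and 876 on array 2, with a mean of -0.13 on the log2 scale (SD 0.072, n = 2 arrays) and an adjusted p from limma of 0.309.

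Ncor1, the nuclear receptor co-repressor that the BTB domain of Plzf binds, gave 1207 in wild type and 1387 in Plzf lu/lu on array 1, and 1113 and 1283 on array 2. The Plzf lu/lu values lay above the wild type values without overlap, and the arrays gave nearly the same ratio. Its mean log2 ratio was 0.20 (SD 0.0031, n = 2 arrays, adjusted p from limma 0.156). Sin3a, a scaffold of the SIN3 deacetylase complex, was the lowest of all 26 genes. It gave 461 and 388 on array 1 and 448 and 389 on array 2, so the groups did not overlap here either. The mean log2 ratio of Sin3a was -0.23 (SD 0.032, n = 2 arrays), with an adjusted p from limma of 0.131. Sin3a was also the only one of the 35 genes on chromosome 9, at a distance of 8.51 Mb from the probe of Zbtb16. Whether this position took part in its value was not tested. Its paralog Sin3b gave log2 ratios of 0.04 and 0.03, and Cul3 gave 0.01 and 0.03. The 95% intervals from limma were -0.15 to 0.22 for Sin3b and -0.16 to 0.21 for Cul3, both within 1.3-fold in either direction. These intervals bound the ratio at the probe, where dye and genotype cannot be told apart.

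**Figure D3:**
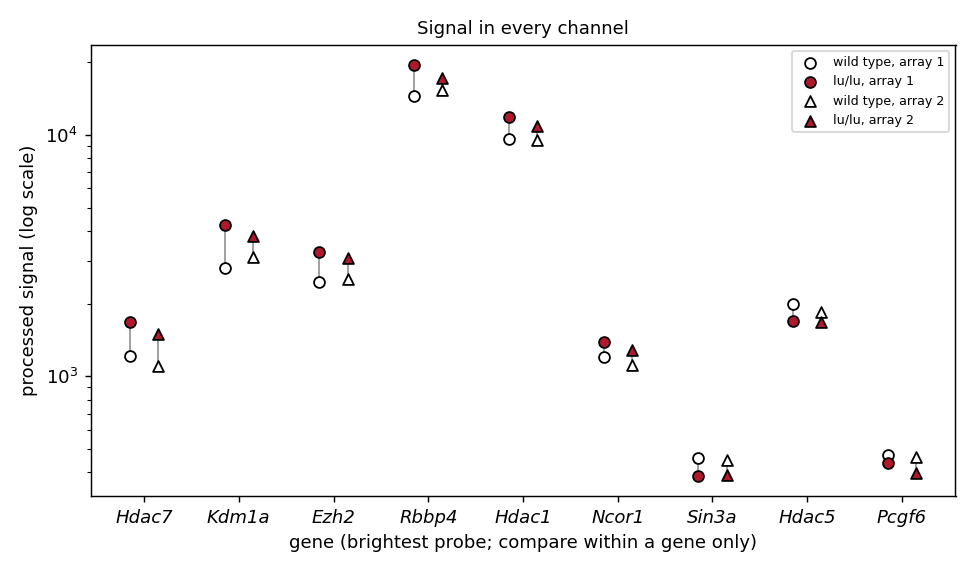
The processed signal (vertical axis, log scale) is plotted in the 4 channels for 9 genes (horizontal axis), with open symbols for wild type, filled symbols for Plzf lu/lu, circles for array 1 and triangles for array 2. In Hdac7, Kdm1a, Ezh2, Rbbp4, Hdac1 and Ncor1 the filled symbols lie above the open ones, and in Sin3a, Hdac5 and Pcgf6 they lie below them. Levels are comparable within a gene and not between genes.

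Of the histone deacetylases, 4 of 6 passed the filter, with 2 above 0 and 2 below 0 on both arrays and a median of 0.07. Hdac7, which shuttles between nucleus and cytoplasm and is known for its role in vessels and lymphocytes, was probed once (chr15:97623208-97623267, minus strand, mm9). It gave 1211 in wild type and 1674 in Plzf lu/lu on array 1, and 1105 and 1493 on array 2. The genotypes did not overlap, and the arrays were close to each other with folds of 1.38 and 1.35. The mean log2 ratio was 0.45 (SD 0.023, n = 2 arrays), with a 95% interval from limma of 0.27 to 0.64 and an adjusted p from limma of 0.0543, just outside the threshold of 0.05. Endothelial markers are named here because Hdac7 is active in vessels. Of these, 5 of 6 were lower in Plzf lu/lu on both arrays, but only 2 of the 6 passed the filter. These 2, Egfl7 and Emcn, were lower on both arrays (background 35.4%, which covers only genes that passed). Whether the share of vessel cells took part in the value of Hdac7 was not tested. In bulk RNA, fewer cells of a type and less RNA per cell cannot be told apart.

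Hdac5, another class IIa enzyme, gave 1987 and 1688 on array 1 and 1841 and 1685 on array 2, with Plzf lu/lu below wild type on each array. Its mean log2 ratio was -0.18 (SD 0.076, n = 2 arrays, adjusted p from limma 0.198). Hdac3, the catalytic subunit of the NCoR complex, gave 800 and 710 on array 1 and 711 and 692 on array 2, where the Plzf lu/lu value of array 1 lay only just under the wild type value of array 2. The mean log2 ratio of Hdac3 was -0.11 (SD 0.094, n = 2 arrays, adjusted p from limma 0.417). Hdac2 and Hdac4 missed the filter. Hdac2, a partner of Hdac1 in the SIN3, NuRD and CoREST complexes, was measured by a dim probe at 128 and 116 on array 1 and 127 and 129 on array 2. Hdac4 gave 135 and 146 on array 1 and 135 and 124 on array 2. Both genes changed sign between the arrays at these probes, and a second probe of Hdac4, nearly as bright, gave log2 ratios of -0.07 and -0.13.

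Hdac1, the deacetylase of the SIN3, NuRD and CoREST complexes, was measured by 3 probes that passed the filter, and they did not give the same direction. The brightest (chr4:129193374-129193433, minus strand, mm9), which lay nearest the 3' end of the gene, gave 9621 in wild type and 11908 in Plzf lu/lu on array 1, and 9548 and 10859 on array 2. The groups did not overlap and Plzf lu/lu was higher, with a mean of 0.25 on the log2 scale (SD 0.086, n = 2 arrays, adjusted p from limma 0.123). A probe 133 bases upstream gave 4391 and 3554 on array 1 and 4133 and 3317 on array 2. There the groups did not overlap either and Plzf lu/lu was lower, with a mean of -0.31 on the log2 scale (SD 0.0089, n = 2 arrays, adjusted p from limma 0.0772 with each probe tested on its own). The third probe, 1281 bases upstream of the first, gave 2370 and 2000 on array 1 and 2399 and 2082 on array 2, again lower in Plzf lu/lu, with a mean of -0.22 on the log2 scale (SD 0.028, n = 2 arrays, adjusted p from limma 0.124, also with each probe on its own). The mean over the 3 probes was -0.10, so the sign of Hdac1 depended on the probe. The sequence of the third probe is shown because it lies upstream of the brightest probe and 2 of its reading frames are free of stop codons. This does not show that it codes for protein, and the brightest probe has 1 such frame too. The third probe comes from chr4:129194655-129194714 (mm9, minus strand) and is written 5' to 3' as deposited.
Hdac1, 1281 bases upstream: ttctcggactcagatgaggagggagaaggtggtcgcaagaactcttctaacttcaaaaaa

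Of the PRC2 genes, 8 of 9 passed the filter, with a median of 0.07, which was 0.21 on array 1 and -0.0065 on array 2. Ezh2, the methyltransferase of PRC2 in dividing progenitors, and Rbbp4, a histone chaperone shared with the SIN3 and NuRD complexes, stood highest. The brightest probe of Ezh2 (chr6:47480307-47480366, minus strand, mm9) gave 2470 in wild type and 3271 in Plzf lu/lu on array 1, and 2528 and 3093 on array 2. Plzf lu/lu lay above wild type without overlap, with log2 ratios of 0.41 and 0.29, a mean of 0.35 (SD 0.081, n = 2 arrays) and an adjusted p from limma of 0.0782. Rbbp4 gave 14442 and 19450 on array 1 and 15344 and 17252 on array 2. Its groups did not overlap, but its log2 ratio on array 1, 0.43, was far from the 0.17 of array 2, and its mean of 0.30 (SD 0.18, n = 2 arrays) had an adjusted p from limma of 0.117. A second, much dimmer probe of Rbbp4, below the filter, did not repeat this, with log2 ratios of 0.0047 and -0.03.

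The other Ezh2 probes did not repeat the value of the brightest one. Ezh2 had 5 probes that passed, and the 4 others lay 1740, 14157, 22138 and 25779 bases upstream of it along the genome. A reading frame free of stop codons does not set them apart, since the brightest probe also has 1. Their sequences are shown because each lies upstream of that probe and has at least 1 such frame. Together they report on the message apart from its 3' end. They were placed in mm9, on the minus strand, at chr6:47482047-47482942, chr6:47494464-47494523, chr6:47502445-47504139 and chr6:47506086-47506145. The first and the third of these cross an intron, since their 60 bases spread over 896 and 1695 bases of the genome. They are written 5' to 3' as deposited, in the same order.
Ezh2, 1740 bases upstream: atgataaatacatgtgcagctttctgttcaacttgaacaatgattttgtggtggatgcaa
Ezh2, 14157 bases upstream: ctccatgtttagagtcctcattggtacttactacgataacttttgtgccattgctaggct
Ezh2, 22138 bases upstream: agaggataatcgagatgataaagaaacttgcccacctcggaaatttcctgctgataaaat
Ezh2, 25779 bases upstream: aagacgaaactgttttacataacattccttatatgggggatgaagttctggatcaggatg

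The log2 ratios of the Ezh2 probe at 1740 bases were -0.08 and -0.06 on arrays 1 and 2, those at 14157 bases were -0.23 and 0.04, and those at 22138 bases were -0.08 and 0.0002. Only the probe at 25779 bases was above 0 on both arrays, with 0.20 and 0.10. The lowest of the probe means was -0.09 and the highest, of the brightest probe, was 0.35. The mean over the 5 probes was 0.06, with an adjusted p from limma of 0.605, so the higher Ezh2 signal rested on the probe nearest the 3' end.

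The other PRC2 genes lay nearer to 0 on average. Eed and Suz12 are core subunits that the methyltransferase needs. Eed gave log2 ratios of 0.18 and -0.02, and Suz12 gave -0.05 and -0.0030. Jarid2, which helps to bring PRC2 to its targets, gave 0.06 on both arrays. Ezh1, the second methyltransferase of PRC2, gave 0.29 and -0.01, and Rbbp7, the paralog of Rbbp4, gave 0.25 and -0.13. Both Ezh1 and Rbbp7 were thus higher in Plzf lu/lu on array 1 only. A second probe of Rbbp7 had the same pattern, with 0.12 and -0.05.

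Mtf2, a Polycomb-like protein that links PRC2 to CpG-rich DNA, was near equal at its brightest probe, with 1399 in wild type and 1318 in Plzf lu/lu on array 1 and 1386 and 1354 on array 2. The mean log2 ratio was -0.06 (SD 0.037, n = 2 arrays, adjusted p from limma 0.627). Its other probes lay on opposite sides of 0. The probe 8713 bases upstream gave log2 ratios of 0.13 and 0.18, and the probe 19695 bases upstream gave -0.34 and -0.25. In the second of these Plzf lu/lu was lower without overlap, at 479 and 379 on array 1 and 463 and 389 on array 2, with an adjusted p from limma of 0.0845 with each probe tested on its own. Phf19, a relative of Mtf2, missed the filter and gave 175 and 162 on array 1 and 217 and 211 on array 2.

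**Figure D4:**
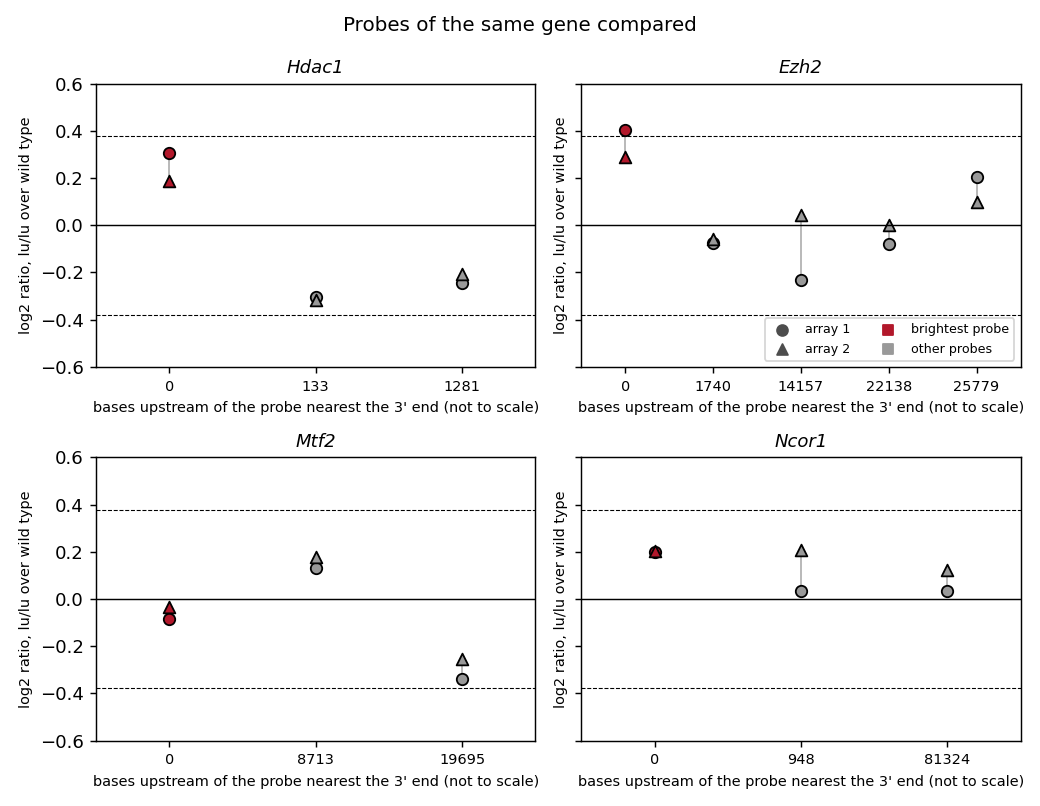
The log2 ratio of Plzf lu/lu over wild type (vertical axis) is plotted for the passing probes of Hdac1, Ezh2, Mtf2 and Ncor1, ordered by their distance along the genome from the probe nearest the 3' end (horizontal axis, not to scale), with circles for array 1, triangles for array 2, the brightest probe in red and dashed lines at 1.3-fold. In Hdac1 the brightest probe lies above 0 and the other probes below it, and in Ncor1 all 3 probes lie above 0.

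In all, 6 of the 26 genes had at least 2 probes that passed the filter, namely Ezh2, Hdac1, Mtf2, Ncor1, Pcgf5 and Rbbp7. In 3 of them (50%), Ezh2, Hdac1 and Mtf2, probes lay on opposite sides of 0 on both arrays. This was so in 26.2% of all 2166 genes with at least 2 passing probes. The 2 sets were not matched on the number of probes per gene, on which this share and the distance between probes can depend. The distance between the highest and the lowest probe mean was 0.56 for Hdac1, 0.45 for Mtf2 and 0.44 for Ezh2, with a median of 0.28 over the 6 genes and 0.18 over the 2166. The brightest probe was the one nearest the 3' end in 6 of 6, against 76.1% of all such genes that could be placed. By contrast, the 3 probes of Ncor1 all lay above 0 on both arrays, with means between 0.08 and 0.20. Hdac7, Kdm1a and Sin3a had 1 probe each, so no second probe bears on their values.

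Of the PRC1 genes, 8 of 14 passed the filter, and 0 of them passed 1.3-fold on array 1 or on array 2 (background 13.8% on array 1 and 6.46% on array 2). None had an unadjusted p under 0.05 in limma (background 27.8%). Their median was 0.04, and the 95% intervals from limma of all 8 lay within 1.3-fold in either direction (background 62.3%). Bmi1, the PRC1 subunit tied to Plzf, gave 897 in wild type and 849 in Plzf lu/lu on array 1, and 892 and 889 on array 2. Its values differed by little on array 1 and hardly at all on array 2, with a 95% interval of the log2 ratio from limma of -0.23 to 0.15. Rnf2 (Ring1B), the catalytic subunit, gave 1326 and 1452 on array 1 and 1372 and 1485 on array 2. Its mean log2 ratio was 0.12 (SD 0.012, n = 2 arrays, adjusted p from limma 0.328). Cbx2, which reads the methyl mark and compacts chromatin, gave 1536 and 1707 on array 1 and 1457 and 1697 on array 2, the highest mean of the 8, at 0.19 (SD 0.048, n = 2 arrays, adjusted p from limma 0.183). Plzf lu/lu lay above wild type without overlap in both Rnf2 and Cbx2 at these probes. Of the probes of Rnf2 below the filter, the brighter gave log2 ratios of -0.15 and -0.11 and the dimmer 0.08 and 0.13.

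The remaining PRC1 genes that passed were Cbx6, Phc2, Pcgf3, Pcgf5 and Pcgf6. Cbx6 and Phc2, another chromodomain protein and a polyhomeotic subunit, were above 0 on both arrays with mean log2 ratios of 0.14 and 0.09. Their second probes, below the filter, did not repeat this, with 0.31 and -0.15 for Cbx6 and -0.25 and -0.18 for Phc2. The Pcgf proteins define the variant forms of PRC1. Pcgf6 was the lowest of the 8 genes, at 471 in wild type and 437 in Plzf lu/lu on array 1 and 461 and 398 on array 2, without overlap, and its mean log2 ratio was -0.16 (SD 0.075, n = 2 arrays, adjusted p from limma 0.242). Pcgf3 was level, with log2 ratios of -0.01 and -0.02. Pcgf5 changed sign, with 0.13 and -0.24 at one probe and 0.03 and -0.29 at a second.

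**Figure D5:**
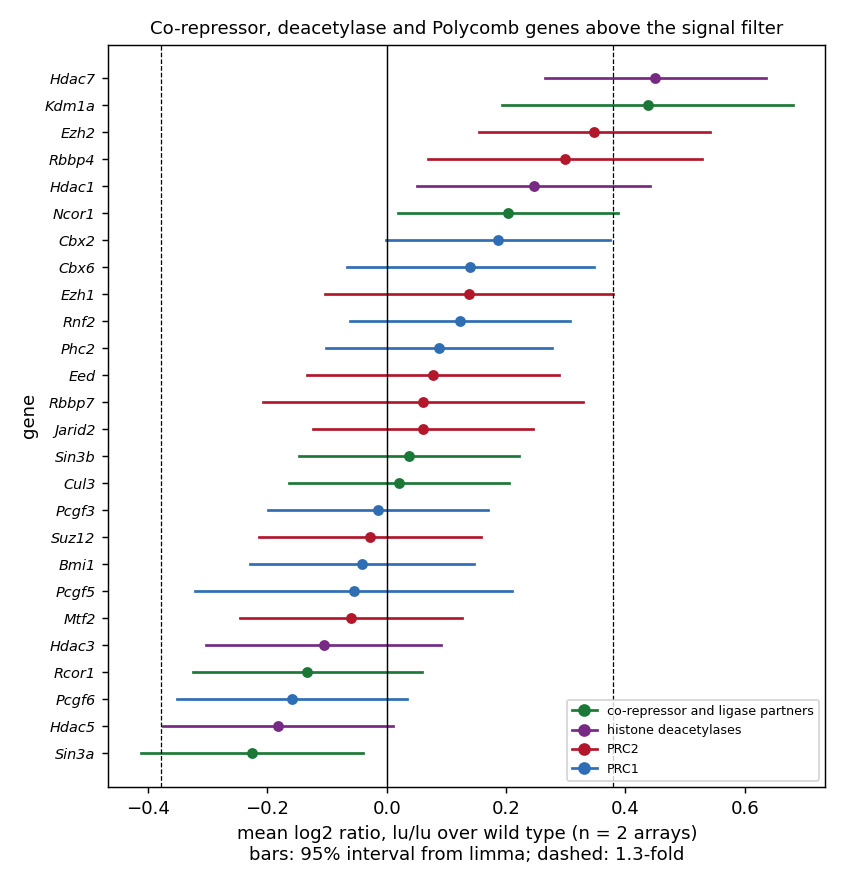
The mean log2 ratio of Plzf lu/lu over wild type over 2 arrays (horizontal axis, points) with its 95% interval from limma (bars) is plotted for the 26 genes that passed the filter (vertical axis), coloured by role, with dashed lines at 1.3-fold. The bars of Hdac7, Kdm1a, Ezh2, Rbbp4, Hdac1, Ncor1 and Sin3a leave out 0, and all 8 PRC1 bars lie between the dashed lines.

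The other 6 PRC1 genes were dim and their ratios are given as values only. Cbx8 gave 133 and 209 on array 1 and 156 and 205 on array 2, and its log2 ratios of 0.66 and 0.39 were beyond 1.3-fold on both arrays. The wild type signal was under 200 on both, and a second probe of Cbx8, also below the filter, gave -0.05 and -0.06. Pcgf1 gave 221 and 167 on array 1 and 237 and 192 on array 2, with log2 ratios of -0.40 and -0.30. Plzf lu/lu was lower without overlap, and only array 1 went beyond 1.3-fold. Pcgf2 (Mel18), the closest relative of Bmi1, gave 212 and 207 on array 1 and 190 and 159 on array 2, and Ring1 gave 144 and 126 on array 1 and 134 and 130 on array 2. Both had the lower value in Plzf lu/lu on each array. Phc3, with 38 and 53 on array 1 and 54 and 61 on array 2, and Cbx7, with 22 and 40 on array 1 and 36 and 31 on array 2, were the dimmest, and Cbx7 changed sign between the arrays.

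A wider list of 81 genes, the further subunits of these complexes and enzymes that oppose them, was read beside the 35. Of these, 57 passed the filter, and 1 went beyond 1.3-fold upward and 0 downward on both arrays (background 2.58% and 0.736%). The 1 gene was Gse1, a partner of the CoREST complex that holds Kdm1a and Rcor1, at 225 in wild type and 318 in Plzf lu/lu on array 1 and 201 and 299 on array 2, with a mean of 0.54 on the log2 scale (SD 0.055, n = 2 arrays, adjusted p from limma 0.0510). No gene of the 57 had an adjusted p under 0.05 in limma. At an unadjusted p under 0.05 from limma there were 13 higher and 3 lower genes, together 28.1% against 27.8% of all genes tested, of which 15.7% were higher and 12% lower. Further subunits of PRC1 held 5 of the 13, out of 10 that passed, with a median of 0.18 (background 15.7% higher). In the NuRD complex, which shares Hdac1, Hdac2, Rbbp4 and Rbbp7, 0 of 8 were higher and 1 was lower at this threshold, with a median of -0.04 (background 15.7% and 12%). The enzymes and complexes that oppose Polycomb, H3K27 demethylases, Trithorax proteins and the BAP1 deubiquitinase, had 3 higher and 0 lower of 9 at the same threshold and beside the same background.

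The samples held the tissue of the labels, with all 6 neural progenitor markers above the filter, but its makeup differed between the genotypes. All 5 forebrain markers passed the filter, with 3 higher beyond 1.3-fold on both arrays, and their summed signal was 7370 and 5667 in wild type and 8549 and 9377 in Plzf lu/lu on arrays 1 and 2. The midbrain markers summed to 5341 and 5983 in wild type and 4748 and 5489 in Plzf lu/lu, and En2 carried the difference, at 1917 in wild type and 527 in Plzf lu/lu on array 1 and 2310 and 974 on array 2. Of the other midbrain markers, Pax2 gave log2 ratios of -0.10 and -0.01 and Lmx1b -0.03 and -0.19, En1 was not well above background in any of the 4 channels, and Otx2, which also stands in the forebrain list, was higher in Plzf lu/lu. The hindbrain markers were near background, with 3 of 5 not well above it in every channel. Endothelial markers summed to 4714 and 5196 in wild type and to 4008 and 3744 in Plzf lu/lu. The neuron markers summed to 5999 in wild type and 6316 in Plzf lu/lu on array 1, and to 5308 and 8371 on array 2, so they stood apart mainly on array 2. The arrays also went opposite ways in the erythroid markers, at 343945 and 184370 on array 1 and 146769 and 177878 on array 2, and in the surface ectoderm markers, at 7506 and 11630 on array 1 and 11076 and 8330 on array 2. The mesenchyme markers, all 6 above the filter, summed to 9269 in wild type and 9689 in Plzf lu/lu on array 1, and to 7362 and 7179 on array 2. The macrophage markers, of which 2 of 4 passed the filter, summed to 2524 and 2054 on array 1 and to 2248 and 2073 on array 2. Whether this makeup of the samples took part in the values of the co-repressor, deacetylase and Polycomb genes was not tested.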

How the data were processed

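RNA of wild type (Cy3) and Plzf lu/lu (Cy5) brain was measured on 2 arrays with 2 dyes each. Per the labels and methods, the authors used Feature Extraction 10.7.3.1, which subtracted background and normalized the dyes by rank-consistency LOWESS. The deposited values are processed intensity and its log10 ratio, and the same ratio was deposited as log2 in a separate table. Probe positions are the deposited ones, in mm9.

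Spots flagged as controls or outliers were dropped, the rest were averaged per probe as log2, and the brightest probe stood for a gene. The filter was a signal above 200 and a signal-to-noise ratio of at least 5 (mean spot less median local background, over the SD of background pixels) in every channel. Log2 ratios were fitted in limma 3.58.1 (R 4.3.3, lmFit with an intercept, eBayes) with Benjamini-Hochberg adjustment over 10600 genes. With 1 residual degree of freedom per gene, p-values rest on variance pooled across genes, and the number of arrays limits the precision. The fit was tested on simulated data. The other steps used data.table (version 1.17.8), jsonlite 2.0.0, Python 3.11.15, numpy 2.4.6, pandas 2.3.3 and matplotlib 3.10.9.

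Genes given with full values are those beyond 1.3-fold on both arrays, the 6 highest and 6 lowest means, those whose probes lie on opposite sides of 0 on both arrays, those that miss the filter, Zbtb16 and genes of the wider list beyond 1.3-fold. Others named with values were chosen after their values were seen. The genes, lists and tests were chosen with earlier results of these data known. Epop and Ezhip of the wider list were not found under these names. The alternatives were normexp (offset 50) with loess or with median centring on the genes tested, the deposited log2 table, other filters, the mean over probes, removal of the GC trend (lowess, span 0.67), 1.5-fold, the mean of the arrays, eBayes with trend, channels not paired by array, and each array alone. Testing each probe on its own was added after seeing the data.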

Additional observations from a re-analysis of the deposited data

How the results depend on the processing

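The count of genes beyond 1.3-fold upward on both arrays was 1 (Hdac7). It was 2 (Cbx8 and Hdac7) with genes well above background, with the filter passed in at least 1 channel of each array, and with no filter, 2 (Hdac7 and Kdm1a) with the mean of the arrays, and 0 at 1.5-fold. With 1 array left out it lay between 1 and 4, where array 1 alone gave Ezh2, Hdac7, Kdm1a and Rbbp4. The downward count was 0 in every alternative. The count at adjusted p under 0.05 in limma was 0, and was 6 (Ezh2, Hdac1, Hdac7, Kdm1a, Rbbp4 and Sin3a) with normexp and median centring, where 14.3% of all genes passed, and 1 (Hdac7) with the GC trend removed, where 6.67% did. It was 0 with the channels not paired by array (no replicate block, 6 genes at an unadjusted p under 0.05 from limma), as in the other alternatives. The median of 0.06 was -0.017 with the GC trend removed, and lay between 0.013 and 0.056 with 1 array left out. The adjusted p from limma ranged over the alternatives from 0.0168 to 0.533 for Hdac7, from 0.0276 to 0.566 for Kdm1a, from 0.0313 to 0.605 for Ezh2 and from 0.0289 to 0.601 for Hdac1. The sign was kept in every alternative for 17 of the 26 genes, and Hdac1 turned negative with the mean over probes. Other filters, eBayes with trend and unpaired channels leave the mean of a gene as it is, so its sign could not turn there. The deposited log2 table holds the same ratio, rounded. The mean over probes cannot change a gene with 1 passing probe. The cause of the shifts between the alternatives was not tested. Ratios of dim probes, such as those of Cbx7, Phc3 and Hdac4, are limited by signal over background.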
